A study of Mus musculus with 9 samples.

Results

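MicroRNAs with late registry numbers were compared between brown (BAT), subcutaneous (SAT) and visceral (VAT) adipose tissue of mice on a high fat diet (HFD). A mouse miRNA was taken when the number in its name was 1900 or more and its value was above the lowest value of the table in at least 3 of the 9 libraries. The table holds 1251 miRNAs, of which 378 had such a number, and 39 of these met the requirement on libraries. They are called late-numbered miRNAs here, and the other 304 miRNAs that met the same requirement, with lower numbers or let-7 names, serve as the rest of the table. The 39 were thus chosen by their measured values in the same 9 libraries. A miRNA that entered through a single depot had to differ between depots, so the counts below describe the 39 and do not test them as a group.

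The small RNA libraries came from male C57BL/6J mice. They started at an age of 5 to 6 weeks, were kept for 11 weeks on feed in which fat gave 45% of the energy, and were fasted for 4 hours before tissue collection. BAT was interscapular, SAT was inguinal and VAT was epididymal fat, and no genotype or other treatment set the groups apart. Each depot had 3 libraries, named here by their title numbers as BAT 12, BAT 15 and BAT 20, SAT 14, SAT 19 and SAT 20, and VAT 14, VAT 17 and VAT 20. The labels do not say whether RNA of several mice was pooled or whether libraries with the same number came from the same mouse. The p-values thus measure the spread between these libraries, taken as unpaired. Whole tissue was sequenced, where fewer cells of a type and less RNA per cell cannot be told apart.

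A miRNA is a short RNA that is cut from a hairpin precursor and guides a silencing complex to messenger RNAs, which it recognises mainly through its seed, the bases near its 5′ end. Precursors give a 5p and a 3p arm, and usually one arm is kept. Registry numbers follow the order of discovery, so that the lowest numbers hold many abundant and conserved families, whereas late numbers were mostly added from deep sequencing and are often restricted to rodents. Some late entries have been questioned as fragments of other RNAs or as copies of repeats, and for most of them no role in fat is established.

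Mature sequences from RefSeq (GRCm38.p6) were found for 25 of the 39 miRNAs. The first set below belongs to miRNAs with the largest or most steady differences between BAT and the other depots. They are printed 5′ to 3′ with the seed, bases 2 to 8, in capitals.

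miR-5126: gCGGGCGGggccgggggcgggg
miR-2137: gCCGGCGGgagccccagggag
miR-5130: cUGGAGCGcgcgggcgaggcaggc
miR-6240: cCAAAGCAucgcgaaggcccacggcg
miR-6366: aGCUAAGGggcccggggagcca

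MiR-5126 consists of G and C only, and its locus at chr1:84695890-84695911 on the plus strand has no host gene on that strand. MiR-2137 lies in an intron of Zfp185 at chrX:72992113-72992133, plus strand. MiR-5130 lies in an untranslated exon of Kctd12 at chr14:102982608-102982631, minus strand. MiR-6240 is 26 bases long and lies outside genes on its strand at chr5:114851973-114851998, plus strand, as does miR-6366 at chr16:18165093-18165114, minus strand. The seed of miR-6240 is also that of miR-330-3p.

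The next 3 sequences belong to miRNAs that were above the lowest value in all 3 BAT libraries and in no SAT or VAT library.

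miR-6538: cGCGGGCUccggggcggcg
miR-1900: gGCCGCCCucucugguccuuca
miR-1941-5p: aGGGAGAUgcugguacagaggcuu

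MiR-6538 lies in an intron of Rnf144a at chr12:26414970-26414988, minus strand. MiR-1900 lies in an exon of the antisense transcript Gm47079 at chr9:21032261-21032282, minus strand, and miR-1941-5p in an intron of the antisense transcript Gm35853 at chr15:101369364-101369387, plus strand.

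The last set holds a pair with the same seed, miR-3473b and miR-3473e, and the miRNAs that were higher in VAT than in BAT, miR-1983 and miR-3068-3p.

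miR-3473b: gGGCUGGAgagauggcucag
miR-3473e: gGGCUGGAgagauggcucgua
miR-1983: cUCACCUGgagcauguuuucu
miR-3068-3p: gGUGAAUUgcaguacuccaaca

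MiR-3473b and miR-3473e share a run of 18 bases and had the same values in all 9 libraries, so reads from either cannot be told apart in the table. The sequence of miR-3473b occurs in transcripts of 344 other genes. That of miR-3470b, a late-numbered miRNA from chr16:44013885-44013905, plus strand, occurs in transcripts of 546 other genes. MiR-1983 lies at chr13:21896930-21896950, minus strand, with no host gene, and miR-3068-3p lies in an intron of Alkbh1 and an exon of the noncoding Gm29362 at chr12:87437685-87437706, minus strand. Of the 25 matched miRNAs, 9 had no host gene on their strand. RefSeq sequences were not matched for miR-1940, miR-3096a-5p, miR-3096b-5p, miR-3107-5p, miR-3107-3p, miR-3470a, miR-3960, miR-5099, miR-5105, miR-5107-3p, miR-5109, miR-5115, miR-5117-3p and miR-6243.

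Values are given on the deposited log2 scale, which runs from 3.32, the log2 of 10, to 18.67 in every library. The lowest value includes an offset, so that differences of low miRNAs are understated. Of the 378 miRNAs with numbers of 1900 or more, 324 were at the lowest value in all libraries, 11 were above it in 1 library and 4 in 2. Of the 39 taken, 13 were above it in exactly 3 libraries, 4 in 4, 5 in 5, 2 in 7, 1 in 8 and 14 in all 9. The 4 miRNAs just outside were miR-2861, miR-3061-5p and miR-5617-3p, each above the lowest value in 2 BAT libraries with values from 4.57 to 5.80, and miR-3109-3p, at 3.96 and 3.63 in 2 VAT libraries. Just inside stood miRNAs such as miR-1947-5p, at 4.57 and 5.78 in BAT 12 and BAT 15, 3.38 in VAT 14 and the lowest value elsewhere.

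More late-numbered miRNAs were detected in each BAT library than in any SAT library, and VAT lay between with some overlap. Above the lowest value were 33, 35 and 28 of the 39 in BAT 12, 15 and 20, against 20, 17 and 19 in SAT 14, 19 and 20 and 29, 22 and 25 in VAT 14, 17 and 20. The order over the whole table was different, with 255 to 273 miRNAs above the lowest value in BAT, 240 to 285 in SAT and 323 to 349 in VAT. The median over the 39 was 6.83 to 7.11 in BAT libraries, 3.32 to 4.13 in SAT and 3.80 to 3.85 in VAT. The median of the other 304 miRNAs was 7.34 to 7.43 in BAT, 7.67 to 7.75 in SAT and 7.72 to 7.76 in VAT, so the white depots were slightly above BAT there.

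**Figure D1:**
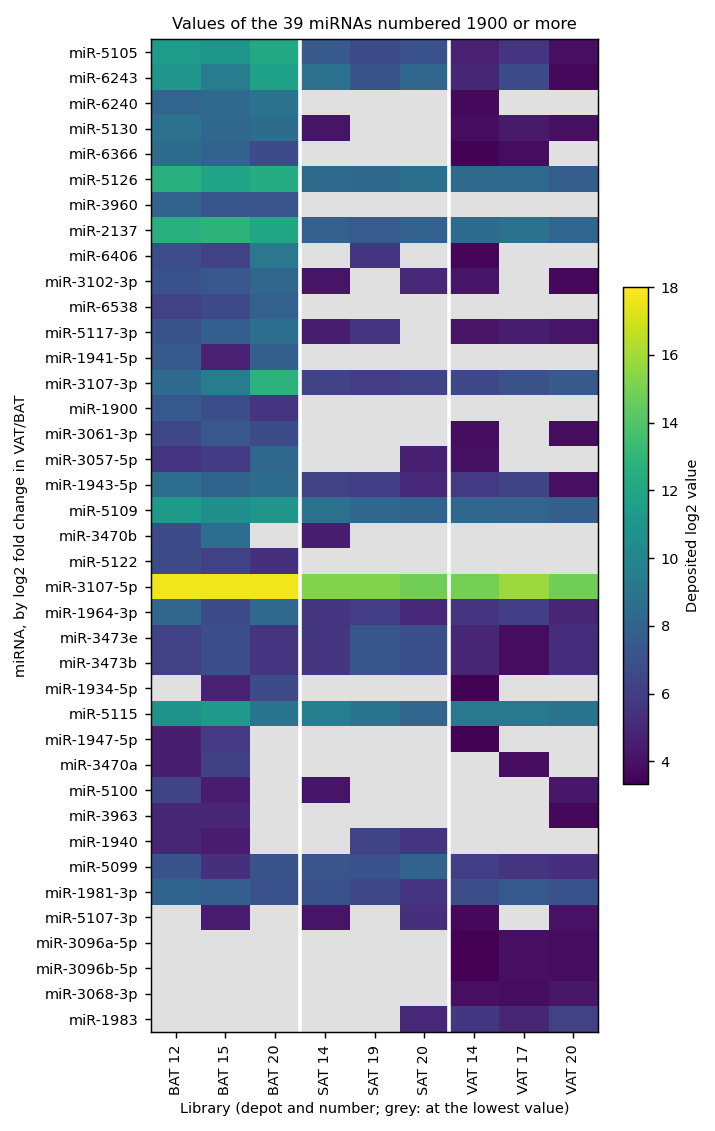
Deposited log2 values (colour scale) of the 39 late-numbered miRNAs (rows, ordered by the VAT/BAT difference) in the 9 libraries (columns, by depot), with cells at the table's lowest value in grey. The BAT columns hold 28 to 35 coloured cells, the SAT columns 17 to 20 and the VAT columns 22 to 29.

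The depots were checked against marker miRNAs, and the libraries differed in their muscle markers. The 6 brown fat markers summed to 17.4 to 18.8 in BAT, 15.2 in SAT and 15.7 to 16.3 in VAT (log2 of the sum). The 3 white fat markers summed to 9.58 to 10.4 in BAT, 12.9 to 13.3 in SAT and 13.3 to 13.6 in VAT. Of these, miR-196a-5p was at the lowest value in BAT but also at only 3.96 in VAT 14, against 9.57 and 9.16 in VAT 17 and VAT 20. MiR-199a-3p was at 9.58 to 10.41 in BAT. The muscle miRNA miR-133a-3p was at 10.10 in BAT 12 but at 17.20 and 18.67 in BAT 15 and BAT 20, at 9.85 to 10.79 in SAT, and at 9.85, 12.59 and 17.20 in VAT 14, 17 and 20. MiR-206-3p was at the lowest value in BAT 12, at 8.17 in BAT 15 and at 8.23 in BAT 20, and miR-499-5p was at the lowest value everywhere. The muscle markers did not all go together. MiR-1a-3p was at the lowest value in BAT 15 too and at 7.38 in BAT 20. In VAT 20 miR-133b-3p was at 9.76, but miR-206-3p was at 3.63 and miR-1a-3p at 3.83. The 5 muscle markers summed to 10.1 to 18.7 in BAT, 9.85 to 10.8 in SAT and 9.85 to 17.2 in VAT. BAT also held the liver miRNA miR-122-5p at 6.59 to 10.1, and SAT had none of it above the lowest value. The 6 leukocyte markers summed to 14.3 to 14.8 in BAT, 13.8 to 16.8 in SAT and 13.4 to 14.4 in VAT, a sum carried by miR-150-5p. The leukocyte markers miR-223-3p, miR-142-3p and miR-511-3p were at the lowest value in BAT, and miR-511-3p was so in SAT too. In BAT 12 miR-133b-3p, miR-206-3p and miR-1a-3p were at the lowest value. Of the 39 late-numbered miRNAs, 29 were above every SAT and VAT library in BAT 12, 30 in BAT 15 and 23 in BAT 20. Over all 343 miRNAs above the lowest value in 3 libraries or more, the shares were 32.9%, 31.8% and 27.7%. The part of muscle and other tissues in the values of late-numbered miRNAs was not tested.

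The VAT/BAT comparison asked which miRNAs differ between visceral white and brown fat of HFD fed mice. Late-numbered miRNAs mostly had lower expression in VAT than in BAT. By limma's moderated test with Benjamini-Hochberg adjustment over the 343 miRNAs, 24 of the 39 were lower in VAT at an adjusted p under 0.05 and 2 were higher. Over all 343 miRNAs 26.8% were lower and 39.4% were higher, and among the other 304 miRNAs 68 were lower and 133 higher. The median difference, VAT minus BAT, was -2.88 over the 39, 0.75 over the other 304 and 0.40 over all. Of the 24 lower miRNAs, 5 had all SAT and VAT libraries at the lowest value. MiR-6240, miR-6366, miR-6406, miR-3057-5p and miR-3061-3p were detected in SAT or VAT too, but reached 3 libraries only with BAT. The entry of all these thus rested on the depot where they are high. Another 11 were among the 14 that were above it in all 9 libraries, where detection in a single depot did not decide their entry. These 11 include miR-3473b and miR-3473e, with identical values, and miR-3107-5p, whose values are those of miR-486-5p. The share lower among all miRNAs above the lowest value in all 9 libraries was not worked out. Counting miR-3473b and miR-3473e once gave 23 lower.

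The largest difference was in miR-5105, which was at 11.41, 11.10 and 12.20 in BAT 12, 15 and 20, 7.41, 6.64 and 7.01 in SAT 14, 19 and 20 and 4.65, 5.60 and 3.92 in VAT 14, 17 and 20. The 3 depots did not overlap, with BAT highest and VAT lowest. VAT minus BAT was -6.85 ± 0.51 on the log2 scale (SE, 3 libraries each, limma adjusted p = 0.000207). SAT minus BAT was -4.55 ± 0.37 (limma adjusted p = 0.00087). MiR-6243 was at 10.99, 9.52 and 11.75 in BAT, against 8.84, 7.14 and 8.14 in SAT and 4.87, 6.62 and 3.63 in VAT, with the depots in the same order and no overlap. VAT minus BAT was -5.71 ± 0.89 (SE, limma adjusted p = 0.00208). Without BAT 15, BAT 20 and VAT 20, the libraries with miR-133a-3p above 15, only BAT 12 was left to compare with VAT 14 and VAT 17. The difference was then -5.24 and not called (adjusted p = 0.098, with the lone BAT library assumed to vary like the others).

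MiR-6240, the 26-base miRNA, was at 8.09, 8.40 and 8.92 in BAT, at the lowest value in the 3 SAT libraries, and at 3.63 in VAT 14 and the lowest value in VAT 17 and VAT 20. It was thus near or at the lowest value in every white fat library, and it reached 3 libraries only with its BAT libraries. The VAT minus BAT difference was -5.05 ± 0.29 (SE, limma adjusted p = 0.000178). MiR-330-3p, which has the same seed and a lower number, was at 5.53 and 5.73 in BAT 12 and BAT 15, the lowest value in BAT 20 and SAT, and 4.31, 3.32 and 3.63 in VAT. MiR-5130 was at 8.86, 8.21 and 8.52 in BAT, against 4.13, 3.32 and 3.32 in SAT and 3.83, 4.40 and 3.92 in VAT. Its 3 BAT libraries were close together and all above the white fat libraries, with VAT minus BAT at -4.48 ± 0.28 (SE, limma adjusted p = 0.000207). MiR-6366 was at 8.50, 7.91 and 6.71 in BAT, the lowest value in SAT, and 3.38, 3.80 and 3.32 in VAT. Its VAT minus BAT difference was -4.21 ± 0.48 (SE, limma adjusted p = 0.000596), and no white fat library reached the lowest BAT library. MiR-6366 too reached 3 libraries only with its BAT libraries. For miR-6240 and miR-6366 the direction was thus largely set by their entry.

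**Figure D2:**
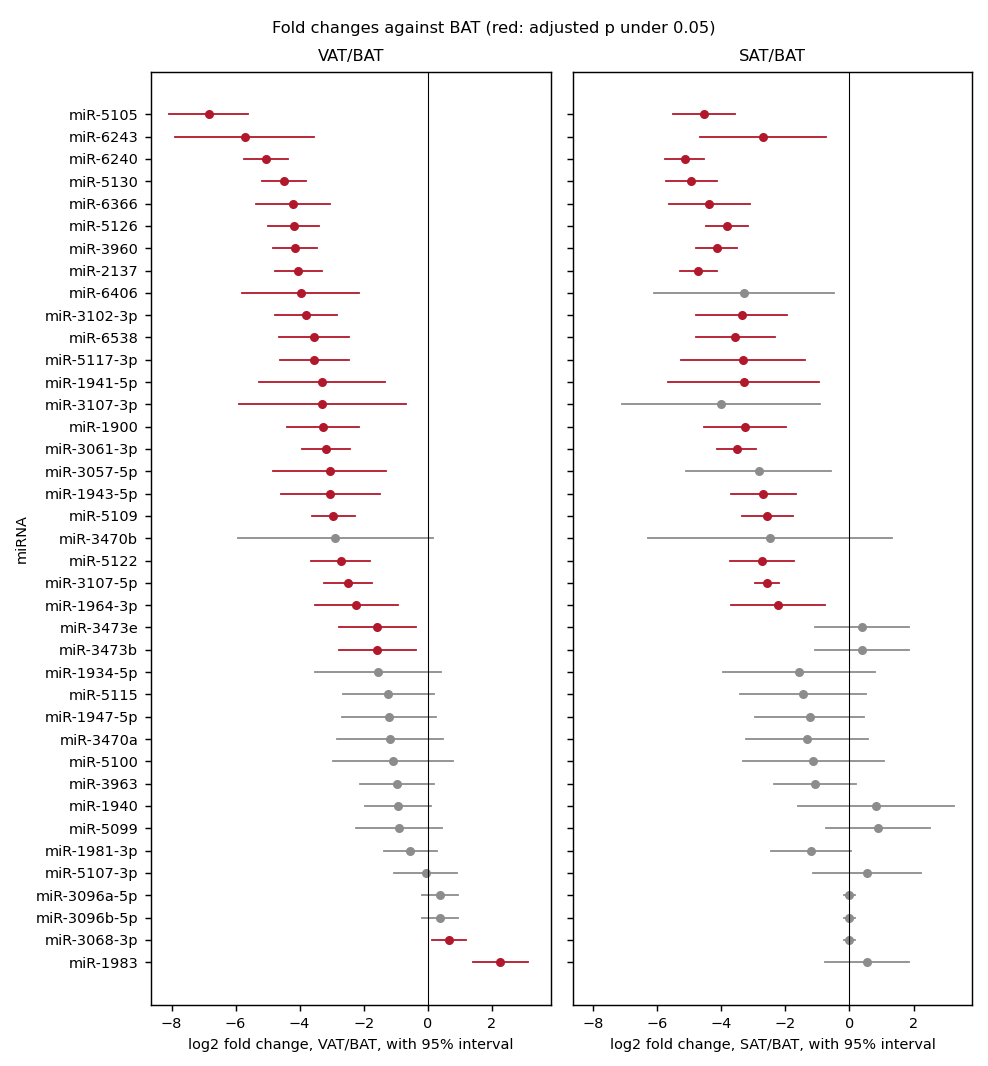
Log2 difference (x axis) of each of the 39 late-numbered miRNAs (rows) in VAT/BAT and SAT/BAT, with 95% intervals from limma as lines and miRNAs with an adjusted p under 0.05 in red. Red points lie left of 0 in VAT/BAT except for miR-1983 and miR-3068-3p, and all 19 red points lie left of 0 in SAT/BAT.

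Among the 5 late-numbered miRNAs with the highest mean, 4 were lower in VAT than in BAT. MiR-3107-5p was at 17.68 in all 3 BAT libraries, 15.23, 15.23 and 14.81 in SAT and 14.95, 15.78 and 14.81 in VAT. It had the same value in every library as miR-486-5p, a miRNA known from red blood cells and muscle and encoded at the same locus, so the reads of these names cannot be told apart and its level is uncertain. VAT minus BAT was -2.49 ± 0.31 (SE, limma adjusted p = 0.000818). The libraries share values at the highest ranks, as after quantile normalization. The equal BAT values of miR-3107-5p thus say little about the spread between libraries, and its SE here and in SAT/BAT may be understated. In BAT 12 against VAT 14 and VAT 17 the difference was -2.31 and not called (limma adjusted p = 0.105). The red cell miRNA miR-451a had the opposite order, with 8.82 to 9.71 in BAT, 9.93 to 10.4 in SAT and 11.2 to 11.8 in VAT, and miR-144-3p was at the lowest value everywhere. The part of red cells or muscle in the values of miR-3107-5p was not tested. Late-numbered miRNAs made up 9.61% to 10.02% of the summed unlogged values above the lowest in BAT, 1.29% to 1.72% in SAT and 1.27% to 2.44% in VAT. Without miR-3107-5p the shares were 0.902% to 1.31% in BAT, 0.0951% to 0.124% in SAT and 0.0691% to 0.0933% in VAT.

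MiR-5126, made of G and C only, was at 12.65, 11.88 and 12.40 in BAT, against 8.40, 8.29 and 8.74 in SAT and 8.37, 8.35 and 7.65 in VAT. Its BAT libraries stood apart, whereas SAT and VAT overlapped. VAT minus BAT was -4.19 ± 0.33 (SE, limma adjusted p = 0.000216). MiR-2137 was at 12.50, 12.81 and 12.12 in BAT, against 7.80, 7.54 and 7.94 in SAT and 8.43, 8.79 and 8.08 in VAT. Again the BAT libraries were highest, and VAT minus BAT was -4.04 ± 0.30 (SE, limma adjusted p = 0.000207). MiR-5109 was at 11.34, 10.61 and 10.99 in BAT, against 8.88, 8.29 and 8.05 in SAT and 8.18, 8.12 and 7.78 in VAT, with VAT minus BAT at -2.95 ± 0.28 (SE, limma adjusted p = 0.000316). MiR-5115 did not pass the test. It was at 10.82, 11.21 and 9.01 in BAT, against 9.68, 8.94 and 8.09 in SAT and 9.18, 9.23 and 8.96 in VAT, where BAT 20 lay among the white fat libraries. Its VAT minus BAT difference was -1.23 with a 95% interval from -2.64 to 0.19 (limma adjusted p = 0.108), and it passed when BAT 20 was left out.

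**Figure D3:**
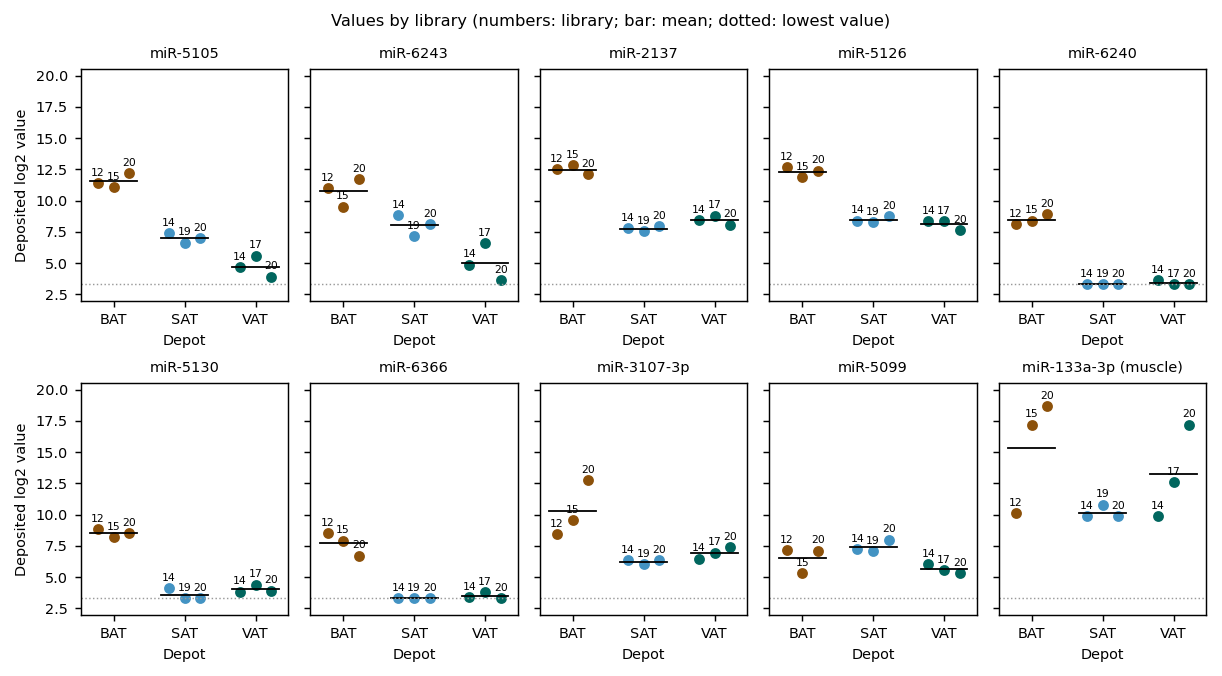
Deposited log2 value (y axis) of 9 late-numbered miRNAs and the muscle miRNA miR-133a-3p in each library (points with library numbers) by depot (x axis), with the mean of 3 libraries as a bar and the lowest value dotted. BAT points of miR-5105 lie between 11.10 and 12.20, above SAT at 6.64 to 7.41 and VAT at 3.92 to 5.60.

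Detected in all 3 BAT libraries and no other were 5 miRNAs, so these entered the list through BAT alone. MiR-3960 was at 7.99, 7.25 and 7.17 in BAT, miR-6538 at 6.19, 6.59 and 7.87, miR-1900 at 7.35, 6.83 and 5.57, miR-5122 at 6.69, 6.16 and 5.28, and miR-1941-5p at 7.42, 4.66 and 7.78. All 5 passed in VAT/BAT. The call of miR-1941-5p was lost without VAT 14, VAT 17 or VAT 20 (limma adjusted p from 0.0509 to 0.0579), although the VAT libraries all stood at the lowest value. The other lower miRNAs in VAT/BAT were miR-6406, miR-3102-3p, miR-5117-3p, miR-3107-3p, miR-3061-3p, miR-3057-5p, miR-1943-5p, miR-1964-3p, miR-3473b and miR-3473e, with differences from -3.97 (miR-6406) to -1.57 (miR-3473b and miR-3473e).

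Some of these calls did not hold with 1 library fewer, although their differences kept their direction. MiR-3107-3p, the other arm of miR-3107, was at 8.43, 9.57 and 12.74 in BAT and between 6.01 and 7.41 in the white depots. Its difference of -3.29 ± 1.07 (SE, limma adjusted p = 0.0358) was not called without BAT 15, VAT 14, VAT 17 or VAT 20 (differences from -3.63 to -3.06, adjusted p from 0.0569 to 0.127). MiR-3473b and miR-3473e, at 5.57 to 6.83 in BAT and 3.80 to 5.22 in VAT, lost their call without BAT 12, BAT 15, VAT 14 or VAT 17 (differences from -1.69 to -1.15). MiR-1964-3p and miR-3057-5p lost it without VAT 20 (differences -1.94 and -2.95, limma adjusted p = 0.0535 and 0.0552). The difference of miR-3470b, at 6.69, 8.60 and 3.32 in BAT against the lowest value in VAT, was -2.88 and did not pass (adjusted p = 0.0853), and it passed without BAT 20.

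Higher in VAT than in BAT were miR-1983 and miR-3068-3p. Both reached 3 libraries only with VAT and had no BAT library above the lowest value, so this direction was fixed by their entry. MiR-1983 was at the lowest value in BAT, at 3.32, 3.32 and 4.96 in SAT and at 5.69, 4.91 and 6.19 in VAT, so that VAT and BAT did not overlap. VAT minus BAT was 2.27 ± 0.36 (SE, limma adjusted p = 0.00209). In BAT 12 against VAT 14 and VAT 17 the difference was 1.98 and not called (limma adjusted p = 0.117). Its seed is that of miR-412-3p, and every library had miR-412-3p at the lowest value. MiR-3068-3p was at 3.91, 3.80 and 4.26 in VAT and at the lowest value in the 6 other libraries, a difference of 0.67 ± 0.22 (SE, limma adjusted p = 0.0384) that was called in 6 of 15 alternatives. It was not called without BAT 12, BAT 15 or VAT 20 (adjusted p from 0.051 to 0.0913). Near the lowest value the size depends on the offset and the centring, with 0.16 after a further 40 was added, 0.33 after centring on the other miRNAs (limma adjusted p = 0.255 and 0.232) and 2.74 with the lowest value subtracted and 1 added. MiR-3096a-5p and miR-3096b-5p, which had the same values as each other, were also above the lowest value only in VAT, at 3.36, 3.92 and 3.83, and did not pass (limma adjusted p = 0.192).

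The other 11 miRNAs did not pass in VAT/BAT. MiR-1981-3p, an intronic miRNA of Marc2, was at 7.0 to 8.05 in BAT, 5.60 to 7.04 in SAT and 6.78 to 7.35 in VAT, and miR-5099 was at 5.32 to 7.15, 7.04 to 8.0 and 5.33 to 6.04. MiR-1934-5p, miR-1947-5p, miR-3470a and miR-3963 were detected in 2 BAT libraries and 1 VAT library each and reached 4.92 to 6.71. MiR-5100 was detected in BAT 12, BAT 15, SAT 14 and VAT 20, with 6.34 as its highest value. MiR-5107-3p was between 3.32 and 5.33, and miR-1940 was highest in SAT 19, at 6.32, and at the lowest value in VAT. MiR-5115 and miR-3470b complete the 11. BAT 20 was low in several of these, and without it miR-1940, miR-1947-5p, miR-1981-3p, miR-3470a and miR-3963 passed as well. Without BAT 12 miR-1934-5p passed, and without BAT 15 miR-5099 did. The total was 33 without BAT 20 and 21 to 24 without any other library.

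The SAT/BAT comparison used the same BAT libraries, so its differences are not independent of those in VAT/BAT. Of the 39 late-numbered miRNAs, 19 had lower expression in SAT than in BAT and none had higher expression by the same test, and at an unadjusted p under 0.05 the counts were 22 and 0. Over all 343 miRNAs 18.1% were lower and 22.4% higher, and among the other 304 miRNAs 43 were lower and 77 higher. The median difference, SAT minus BAT, was -2.59 over the 39, 0.43 over the others and 0.26 over all. The 19 include the 5 miRNAs detected in BAT alone. Of the 14 miRNAs that were above the lowest value in all libraries, 8 were lower, and the share among all such miRNAs was not worked out.

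The largest SAT/BAT difference was in miR-6240, at -5.15 ± 0.23 (SE, limma adjusted p = 0.000201), with the 3 SAT libraries at the lowest value. Its entry needed BAT, so a lower SAT value was fixed in advance. MiR-5130 followed at -4.94 ± 0.31 (adjusted p = 0.000403) and miR-2137 at -4.72 ± 0.22 (adjusted p = 0.000215). MiR-6366 differed by -4.38 ± 0.49 (SE, limma adjusted p = 0.00281), and with SAT at the lowest value its entry needed BAT as well. MiR-5126 differed by -3.83 ± 0.25 and miR-3107-5p by -2.59 ± 0.14 (limma adjusted p = 0.000423 and 0.000309), and miR-5109 by -2.57 ± 0.30 (adjusted p = 0.0034). MiR-6243, at -2.71 ± 0.75, passed narrowly (adjusted p = 0.0441) and lost its call without BAT 12, BAT 20, SAT 14, SAT 19 or SAT 20 (differences from -3.11 to -2.21, adjusted p from 0.065 to 0.12). MiR-1964-3p and miR-1941-5p lost their calls without the same libraries, and miR-5117-3p lost its call without BAT 15, BAT 20, SAT 14 or SAT 20. MiR-3107-3p passed without BAT 12 or BAT 20, and miR-1947-5p, miR-3470a, miR-3470b and miR-3963 passed without BAT 20. MiR-5115 did not pass here either (-1.44 ± 0.75, adjusted p = 0.184). Lower in VAT/BAT and not called in SAT/BAT were miR-3057-5p, miR-3107-3p and miR-6406, with adjusted p from 0.0506 to 0.0669, and miR-3473b and miR-3473e, at 5.64, 7.27 and 6.89 in SAT (difference 0.40, limma adjusted p = 0.601). These differences between the comparisons were not tested.

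For 22 of the 39 miRNAs the lowest BAT library was above the highest of the 6 white fat libraries. This held for 20.7% of all 343 miRNAs. The 22 include the 5 miRNAs detected in BAT alone, for which this was fixed by their entry. Every stretch of the number range held miRNAs that were lower in VAT than in BAT. They were 4 of 9 miRNAs with a number under 2000 and 9 of 15 from 2000 to under 4000, where miR-3473b and miR-3473e count separately. From 4000 to under 6000 they were 6 of 10 and from 6000 on 5 of 5, against 26.8% of all 343. In the stretch under 2000 and in that from 2000 to under 4000, 1 miRNA each was higher. The median differences were -1.56, -2.49, -2.83 and -4.21. In SAT/BAT the counts lower were 4, 5, 6 and 4, against 18.1% of all 343. Every stretch held a miRNA that entered through BAT alone, and a trend with the number was not tested. The 6 miRNAs in the table numbered 1895 to 1899, just under the limit, were at the lowest value in every library.

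The VAT/SAT comparison set the white depots against each other. Of the 39 late-numbered miRNAs, 2 (5.13%) were lower and 1 (2.56%) was higher in VAT, against 7.58% and 8.45% of all 343 miRNAs. The median difference was 0.00 over the 39, 0.13 over the others and 0.10 over all. For 5 of the 39 the difference was 0, with every SAT and VAT library at the lowest value. MiR-5105 was lower in VAT than in SAT, with a difference of -2.30 ± 0.49 (SE, limma adjusted p = 0.0396), and so was miR-5099, with -1.79 ± 0.33 (adjusted p = 0.0305). MiR-3068-3p was higher in VAT by 0.67 ± 0.14 (adjusted p = 0.0413), but it entered the list through VAT alone, so this direction was fixed. The miR-5099 values were 7.22, 7.04 and 8.0 in SAT and 6.04, 5.53 and 5.33 in VAT, with BAT at 7.15, 5.32 and 7.11 between and across them. Every one of the 3 calls was lost without SAT 14, SAT 19, SAT 20, VAT 14 or VAT 20, and that of miR-5099 also without VAT 17 (adjusted p from 0.0527 to 0.108). At an unadjusted p under 0.05, 9 of the 39 differed (5 lower, 4 higher), against 51 lower and 72 higher of all 343. Among the 9 were miR-6243 (-3.00, limma adjusted p = 0.0881), miR-2137 (0.68, adjusted p = 0.106) and miR-1983 (1.73, adjusted p = 0.114). MiR-6243 and miR-3061-3p passed without VAT 17, miR-1940 without SAT 14, and miR-3096a-5p and miR-3096b-5p without VAT 14.

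The late-numbered miRNAs varied more between libraries of the same depot than the rest. Among miRNAs detected in 1 or more libraries of the depot, the median range over 3 libraries was 1.60 for late-numbered against 1.09 for other miRNAs in BAT, 1.27 against 0.78 in SAT and 0.61 against 0.53 in VAT. The widest ranges were 5.28 for miR-3470b in BAT, 2.99 for miR-1940 in SAT and 2.99 for miR-6243 in VAT. The range of miR-3470b in BAT and that of miR-1940 in SAT began at the lowest value. The ranges were not matched for level, which was lower in late-numbered miRNAs, and no test was made of them.

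A property of the sequences that their choice did not use was the base composition. The 25 matched miRNAs had a median GC content of 61.9% (45.5% to 100%), against 50% (27.3% to 77.3%) for 263 other miRNAs with a RefSeq sequence. The GC content was also related to the VAT/BAT difference. Of the 16 late-numbered miRNAs with 60% GC or more, 14 were lower in VAT than in BAT, including miR-5126, miR-6538, miR-2137 and miR-5130. Among these 14, miR-6538, miR-1900 and miR-5122 entered the list through BAT alone, so a lower VAT value was fixed by their entry. MiR-6240, miR-6366 and miR-6406 also reached 3 libraries only with their BAT libraries. Between 50% and 60% GC 3 of 6 were lower. They were miR-1941-5p, miR-3057-5p and miR-3061-3p, which all reached 3 libraries only with BAT. Under 50% GC none of 3 was lower and 2, miR-1983 and miR-3068-3p, were higher. Both of these reached 3 libraries only with VAT, so their direction was fixed by entry.

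The rest of the table leaned the same way, though less far. Of 39 other miRNAs with 60% GC or more, 14 were lower and 5 higher in VAT (median difference -0.87), whereas of 131 with under 50% GC 9 were lower and 81 higher (median difference 1.54). Across miRNAs, which share their libraries and are not independent replicates, Pearson's r between GC content and the VAT/BAT difference was -0.60 for the 25 late-numbered miRNAs (Spearman's rho -0.66) and -0.47 for the 263 others (rho -0.49). In SAT/BAT r was -0.56 and -0.35. The 25 include miRNAs that reached 3 libraries only with BAT or only with VAT, so r over the 25 is partly set by the choice. The part of GC content in the differences was not tested.

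**Figure D4:**
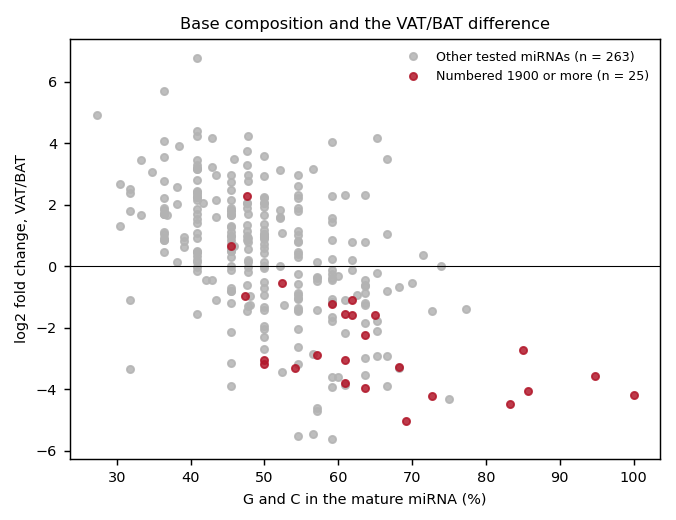
GC content of the mature sequence in percent (x axis) against the log2 difference VAT minus BAT (y axis) for 25 late-numbered miRNAs and 263 other miRNAs. Late-numbered miRNAs lie mostly at 60% GC or more and under 0 on the y axis, where 14 of 16 were called lower.

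Arms of the same precursor seldom appeared together. MiR-3107 was the only precursor with both arms among the 39. The other arms of miR-1943, miR-1964, miR-5117, miR-3057, miR-1934, miR-1947, miR-3068, miR-3096a and miR-3096b were at the lowest value in all 9 libraries. MiR-3061-5p was at 4.57 and 5.32 in BAT 12 and BAT 15, where miR-3061-3p was at 6.52 and 7.32, and miR-1941-3p was at 4.92 in BAT 12. MiR-3102-5p.2-5p was at 5.76 in BAT 20, where miR-3102-3p was highest, at 8.19. MiR-5107-5p was detected only in SAT 20, at 6.08, in the library where miR-5107-3p had its highest value, 5.33.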

How the data were processed

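Small RNA was sequenced from 9 libraries. Per the labels and the study's methods, the authors aligned reads to miRBase precursors (genome build mm10 in the submitters' processing notes) and counted those that fell on mature miRNAs. Reads with more than a single place were split in proportion, counts were scaled to the total of usable reads, and 40 counts were added. The deposited numbers are on a log2 scale, and the small RNA aligner is not given in the sources used here. The lowest value is 10 before log2, and the libraries share values at the highest ranks, as after quantile normalization. Without read counts in the table, depth is unknown and no counting interval is given.

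Values were used as deposited. A miRNA had to exceed the lowest value in 3 libraries or more, which kept 343 of 1251. These were fitted with limma 3.58.1 in R 4.3.3 (lmFit, eBayes), two-sided, on the 6 libraries of each comparison without covariates, with Benjamini-Hochberg adjustment over the 343. The fit was tested on simulated data. Library numbers come from the sample titles. Full values are given for the 5 miRNAs with the largest called difference without overlap in each comparison and for the 5 with the highest mean, and any further ones were picked with their values in view. The miRNAs described, the marker lists and the tests were chosen with earlier results of these data known. GC content came from RefSeq sequences and host genes from the GENCODE annotation, both on GRCm38. Descriptive values were computed in Python 3.11.15. The alternatives were other offsets and scalings, no filter, no moderation, all 9 libraries in 1 fit, replicate blocks, each library left out and, added after seeing the data, the libraries with miR-133a-3p under 15.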

Additional observations from a re-analysis of the deposited data

How the results depend on the processing

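Of the 26 late-numbered miRNAs called in VAT/BAT, 11 stayed called in all 15 alternatives, and of the 19 called in SAT/BAT 12 did. No called difference of a named miRNA changed sign. Without the filter, over 1251 miRNAs, 16 were called in VAT/BAT. The whole table then had 128 calls, against 227 as reported. Leaving out single libraries gave 21 to 33 calls in VAT/BAT and 15 to 20 in SAT/BAT, and only libraries with miR-133a-3p under 15, with BAT 12 as the lone BAT library, gave 19 and 18. Centring on the median of the other miRNAs, which moves VAT minus BAT by 0.34 and SAT minus BAT by 0.32, gave 28 calls (27 lower and 1 higher) and 23 calls (all lower). The whole table then had 211 and 138 calls.

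The 3 calls in VAT/SAT depended on the processing. There were 0 without the filter, 0 relative to miR-191-5p and 0 without moderation (7 at an unadjusted p under 0.05 in each, against 9 as reported). Over the whole table these settings gave 4, 2 and 13 calls, against 55 as reported. There were 0 with only libraries with miR-133a-3p under 15 (6 unadjusted), 1 with all 9 libraries in one fit and 0 to 4 without single libraries, with limma. The whole table then had 5, 30 and 0 to 49 calls. Relative to miR-191-5p, both calls over the whole table (2 miRNAs) were higher in VAT. The causes were not tested.

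The title number as a replicate block was possible only in VAT/SAT, where SAT and VAT share 2 numbers, and gave 3 calls. The order number as a replicate block gave 23 calls in VAT/BAT, 18 in SAT/BAT and 0 in VAT/SAT (4 unadjusted). Over the whole table it gave 196, 120 and 0 calls. Deviations of libraries with the same title number had correlations from -0.14 to 0.27 (4 pairs), against -0.48 to 0.36 for different numbers (23 pairs). So few pairs cannot decide whether the same number means the same mouse, and the numbers were not taken to pair libraries. Depth is unknown, so a miRNA at the lowest value may be present below detection.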
